A study of Mus musculus with 15 samples.

Results

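Imprinted genes were followed in poly(A)-enriched RNA-seq of 15 libraries of mouse mesenchymal cells, the cell type that the labels abbreviate as MSCLCs. The 36 genes were a list of known mouse imprinted genes, taken by Ensembl identifier from a table of 55471 genes, and they belong to 16 imprinted clusters. By textbook assignment 14 are expressed mainly from the maternal allele, 21 mainly from the paternal allele, and Gnas from both, through different promoters. The counts do not separate the parental alleles, so the values are total RNA of a gene and say nothing about which allele was read.

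The study concerns bone mesenchymal stem cells and EWS::FLI1, a fusion of a pair of genes that drives Ewing sarcoma. In experiment 1, 4 libraries carried the genotype EFPrx1MSCLC (title numbers 219, 221, 225 and 229) and 3 the genotype MSC (202, 234 and 237), the wild type of the design text. Experiment 2 held 2 libraries labelled ha, with Combi and T in their titles, and 4 labelled hr, with Combi and uns in their titles, set against 2 labelled EF, whose titles carry neither. The design text calls them ha-EFPrx1, hr-EFPrx1 and EFPrx1. Every title of experiment 2 carries the number 221, as does 1 EFPrx1MSCLC library, and hr comes as 2 lines (uns-1 and uns-2) of 2 libraries each. The fusion and its Prx1-linked expression are read from the series title and the group names; the labels spell out neither, nor ha, hr or Combi. No label gives an age, or ties the libraries of a group to different animals or cultures, and a p-value here reflects only how far the libraries differ, for technical reasons or others.

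Library totals were 14906251 to 26833939 expected counts in experiment 1 and 11195431 to 16378416 in experiment 2. The EF pair and the 2 libraries of each hr line differed by little more than counting noise, with a variance 1.29 to 1.35 times that of counting, against 21.9 times for the ha pair and 7.63 to 126 times for pairs within an experiment 1 group. All 12 mesenchymal stromal markers had counts in every group. Their summed level was 4735 to 11084 CPM (read counts scaled to library size) in EFPrx1MSCLC and 22452 to 39173 in MSC. The 12 hematopoietic markers summed to 49.3 to 415 CPM in EFPrx1MSCLC libraries and 11900 to 34035 CPM in MSC libraries, all 12 with counts in both groups. The 6 osteoclast markers, again with counts for every marker in both groups, summed to 7.76 to 67.9 CPM in EFPrx1MSCLC and 434 to 2261 CPM in MSC. These marker levels moved with the genotype in experiment 1, and their part in the differences below was not tested. In bulk RNA, fewer cells of a type and less RNA per cell cannot be told apart.

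Genomic imprinting restricts a gene to the copy inherited from 1 parent. It is set by DNA methylation laid down in the egg or the sperm at control regions and kept by maintenance methylation, and clustered genes share a control region. Many imprinted genes act on fetal growth, and in many tissues several of them decline after birth. Long noncoding RNAs are frequent in these clusters, among them H19, Meg3, Kcnq1ot1 and Airn.

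Below, levels are CPM scaled by the trimmed mean of M values (TMM) within each experiment, and they are compared between groups for 1 gene, not between genes. Values per library are given in the order of title numbers, 219, 221, 225 and 229 for EFPrx1MSCLC, 202, 234 and 237 for MSC, T1 and T2 for ha, uns-1-1, uns-1-2, uns-2-1 and uns-2-2 for hr, and 1 and 2 for EF. Changes are log2 fold changes with their standard error, and adjusted p is from edgeR's quasi-likelihood test with Benjamini-Hochberg adjustment over all genes tested. A gene was called where it was under 0.05.

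Of the 36 imprinted genes, 26 had enough counts for a test in experiment 1 and 19 in experiment 2, and the 19 were among the 26. The 7 tested in experiment 1 only were H19, Cdkn1c, Meg3, Mirg, Sgce, Peg10 and Ppp1r9a. The other 10 were tested in neither. Magel2, a paternally expressed MAGE family gene, had 0 counts in all 15 libraries. Phlda2, Rtl1 and Zdbf2 had 5, 6 and 6 counts over all 15 libraries, Nnat had 15, Zim1 and Rasgrf1 had 34 each, Nespas 67, Usp29 74 and Asb4 76. A count of 0 in a library still allows up to 3 counts, or 0.144 CPM in EFPrx1MSCLC library 221, by counting error alone.

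**Figure D1:**
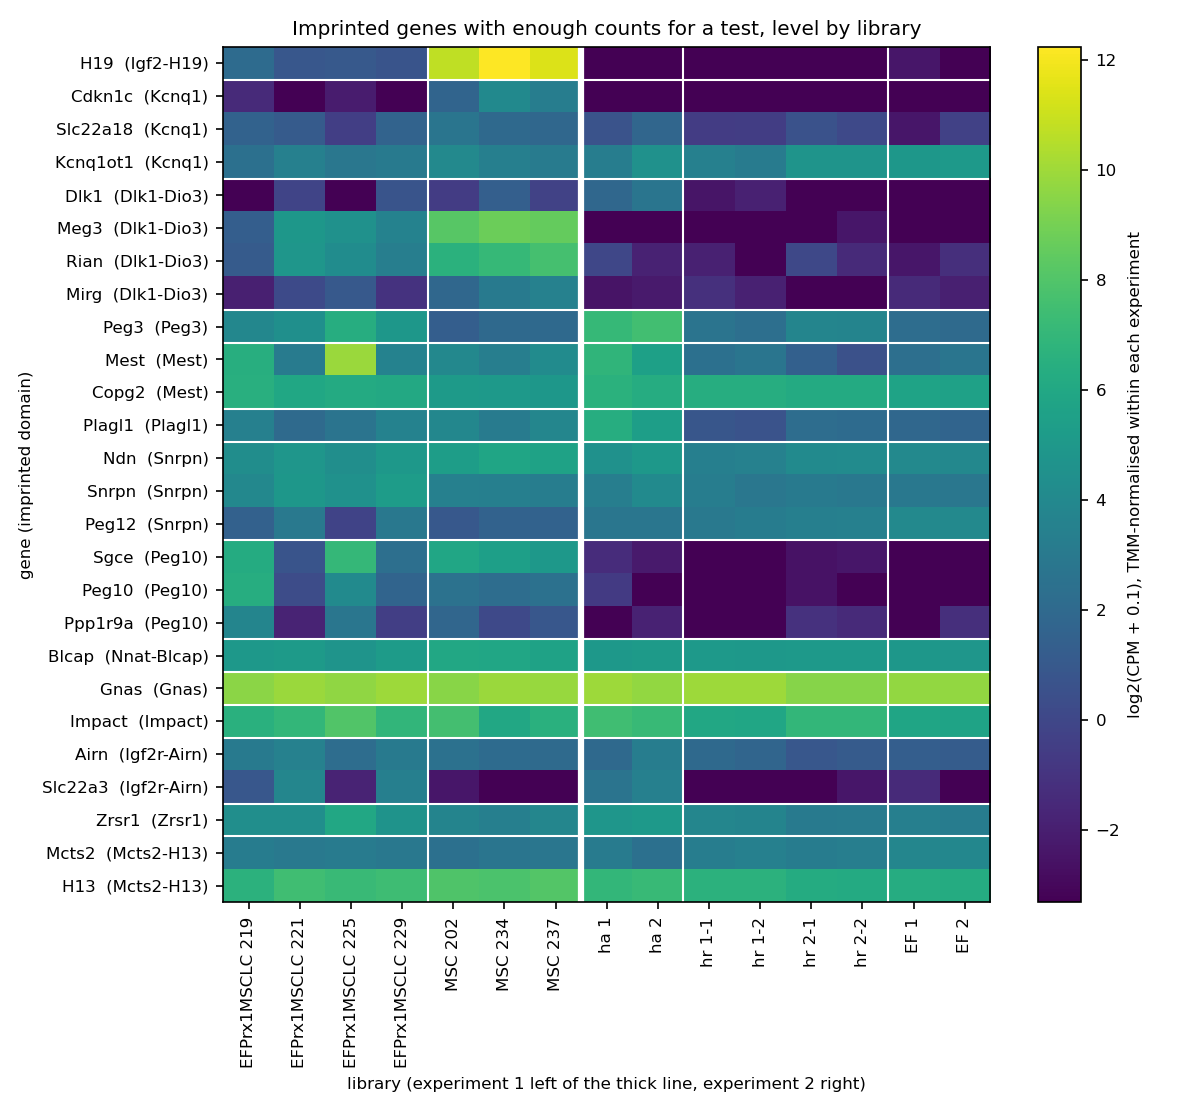
Level of the 26 imprinted genes tested in at least 1 experiment, as log2(CPM + 0.1), in rows ordered by cluster, with the 15 libraries in columns and experiment 1 left of the thick line. H19 and Meg3 are dimmer in the 4 EFPrx1MSCLC columns than in the 3 MSC columns, and dark in all 8 columns of experiment 2.

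In EFPrx1MSCLC against MSC, the maternally expressed noncoding RNAs H19, Meg3, Rian and Mirg and the growth inhibitor gene Cdkn1c were lower, and Peg3, Copg2, Snrpn and Slc22a3 were higher. Of the 26 genes tested, 4 were higher and 7 lower. Over all 14596 genes tested, 7.70% were called higher and 12.1% lower. The median log2 change was 0.13 over the 26 and 0.04 over all genes. The 7 lower genes were H19, Cdkn1c, Meg3, Rian, Mirg, Ndn and Blcap. The groups did not overlap in any of the 11 called genes, nor in Slc22a18, Zrsr1, Mcts2 and H13, which were not called. The share of genes without overlap over all genes was not computed. H19, Cdkn1c and Meg3 passed in every alternative that could test them, and the other 8 were each lost in at least 1. Leaving out MSC 237 left 3 called genes, leaving out MSC 234 left 4, and leaving out EFPrx1MSCLC 221 or 229 left 6 each. Calls over all genes were 1219, 1275, 1673 and 1580 under these omissions, against 2887 with every library. Leaving out MSC 202 instead left 10 called imprinted genes, with 5087 calls over all genes. MSC 202 differed from 234 and 237 by 126 and 87 times the variance of counting, against 12.3 times between 234 and 237. The titles of 234 and 237 carry WT, and that of 202 does not.

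H19 (ENSMUSG00000000031, chr7:142575529-142578143, minus strand, GRCm38) is the maternally expressed long noncoding RNA that shares enhancers with Igf2, and its exon holds the hairpin of miR-675. Its level was 4.2, 1.73, 1.92 and 1.56 CPM in EFPrx1MSCLC and 1677, 4801 and 2691 CPM in MSC. No library of either group came near the other group. The change was -10.34 ± 0.70 on the log2 scale (adjusted p = 0.000553, edgeR quasi-likelihood test). H19 held at most 0.294% of the summed level of the 36 genes in an EFPrx1MSCLC library, and 47.8%, 69.7% and 55.7% in the MSC libraries. In experiment 2 it had 0 counts in ha and hr and 1 count in EF, in library 1, at 0.0887 CPM.

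The Kcnq1 domain, on the same stretch of chromosome 7, is controlled by the paternal antisense RNA Kcnq1ot1. Cdkn1c (chr7:143458339-143461050), which encodes the cyclin-dependent kinase inhibitor p57KIP2, was at 0.256, 0, 0.128 and 0 CPM in EFPrx1MSCLC and 3.06, 16.5 and 9.6 CPM in MSC. EFPrx1MSCLC had 7 counts in all against 419 in MSC, and the change was -6.66 ± 1.22 (adjusted p = 0.0105), or -8.02 without 219 and -6.03 without MSC 234. It had 0 counts in all 8 libraries of experiment 2. An antisense gene overlaps 30.7% of the exon bases of Cdkn1c, and the sources used here do not give the strand setting of the counting. The transporter gene Slc22a18 was at 2.92, 2.11, 0.641 and 3.02 CPM in EFPrx1MSCLC and 6.57, 3.86 and 3.61 CPM in MSC, and its change of -1.10 ± 0.59 did not pass (adjusted p = 0.217). Kcnq1ot1 averaged 7.87 ± 2.36 CPM in EFPrx1MSCLC and 11.7 ± 3.81 CPM in MSC (SD, n = 4 and 3), overlapping groups that did not pass the test (adjusted p = 0.304).

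The Dlk1-Dio3 domain of chromosome 12 pairs paternally expressed protein genes, such as Dlk1 and Rtl1, with maternal noncoding RNAs that carry microRNAs and small nucleolar RNAs. Meg3 (ENSMUSG00000021268, chr12:109541001-109571726) was at 2.41, 30.3, 23.3 and 11.7 CPM in EFPrx1MSCLC and 286, 420 and 378 CPM in MSC. Rian was at 2.15, 28.4, 18.6 and 9.87 CPM in EFPrx1MSCLC and 97.7, 136 and 201 CPM in MSC. Mirg was at 0.154, 1.01, 1.92 and 0.382 CPM in EFPrx1MSCLC and 3.51, 8.02 and 11.2 CPM in MSC. For all 3 RNAs, library 219 was the lowest of the EFPrx1MSCLC libraries and the lowest MSC library stood above the highest EFPrx1MSCLC library. All 3 were lower, with log2 changes of -4.41 ± 0.76 for Meg3 (adjusted p = 0.00842), -3.30 ± 0.75 for Rian (adjusted p = 0.0223) and -3.13 ± 0.85 for Mirg (adjusted p = 0.0404). Rian was lost without 229, 234 or 237, and Mirg also without 221. The change of Rian was -3.91 without 221, and that of Mirg -3.96 without 225.

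The 3 RNAs did not keep 1 ratio. Counts of Rian per count of Meg3 were 0.894, 0.937, 0.797 and 0.840 in EFPrx1MSCLC and 0.342, 0.323 and 0.533 in MSC. The groups did not overlap, and each EFPrx1MSCLC library had more Rian per Meg3 than each MSC library; the ratio was not tested. Dlk1, a transmembrane protein related to Notch ligands that restrains adipogenesis, was at 0, 0.815, 0 and 1.53 CPM in EFPrx1MSCLC and 0.585, 2.5 and 0.722 CPM in MSC, and its change of -1.05 ± 1.37 did not pass (adjusted p = 0.607). Rtl1 had 1 count in experiment 1, in MSC library 202.

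Of 2 RefSeq promoter windows of Meg3, each of 300 bases, the one with more CpG is shown, since Meg3 fell in experiment 1 and had 1 count in all of experiment 2. Capitals mark CpG dinucleotides, the sites of DNA methylation, and the window runs from 250 bases before the start to 50 after it (chr12:109540746-109541045, plus strand, GRCm38.p6).
Meg3: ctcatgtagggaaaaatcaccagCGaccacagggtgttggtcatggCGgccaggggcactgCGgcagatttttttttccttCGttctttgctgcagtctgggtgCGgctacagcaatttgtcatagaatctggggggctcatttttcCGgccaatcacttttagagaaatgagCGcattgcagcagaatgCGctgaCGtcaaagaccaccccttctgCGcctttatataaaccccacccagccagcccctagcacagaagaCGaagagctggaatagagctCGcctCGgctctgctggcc

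It holds 13 CpG, against a median of 7 over 32851 RefSeq promoter windows of the same length, and the other Meg3 window (chr12:109545148-109545447) holds 1. RefSeq windows were matched by symbol for 29 of the 36 genes, with 41 windows in all. Of these, 21 reached an observed-to-expected CpG ratio of 0.6, as did 36.1% of all windows. Methylation was not measured in these libraries.

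The noncoding RNAs of both domains are also microRNA hosts: H19 spans 1 RefSeq hairpin, Rian 3 and Mirg 14, on the same strand. The libraries measured the poly(A) host RNA and not the mature microRNAs. Mature sequences of the hosts that fell are given with the seed, bases 2 to 8, in capitals (RefSeq, GRCm38.p6).
miR-675-5p in H19: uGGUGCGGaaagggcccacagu
miR-675-3p in H19: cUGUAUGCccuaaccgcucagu
miR-770-5p in Meg3: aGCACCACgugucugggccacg
miR-370-3p in Rian: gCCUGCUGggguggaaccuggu
miR-134-5p in Mirg: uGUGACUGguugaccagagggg
miR-154-5p in Mirg: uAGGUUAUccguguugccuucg
miR-453 in Mirg: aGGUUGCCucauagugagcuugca
miR-496a-5p in Mirg: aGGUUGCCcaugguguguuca
Among these, miR-453 and miR-496a-5p share their seed, and the other 6 have a seed each.

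**Figure D2:**
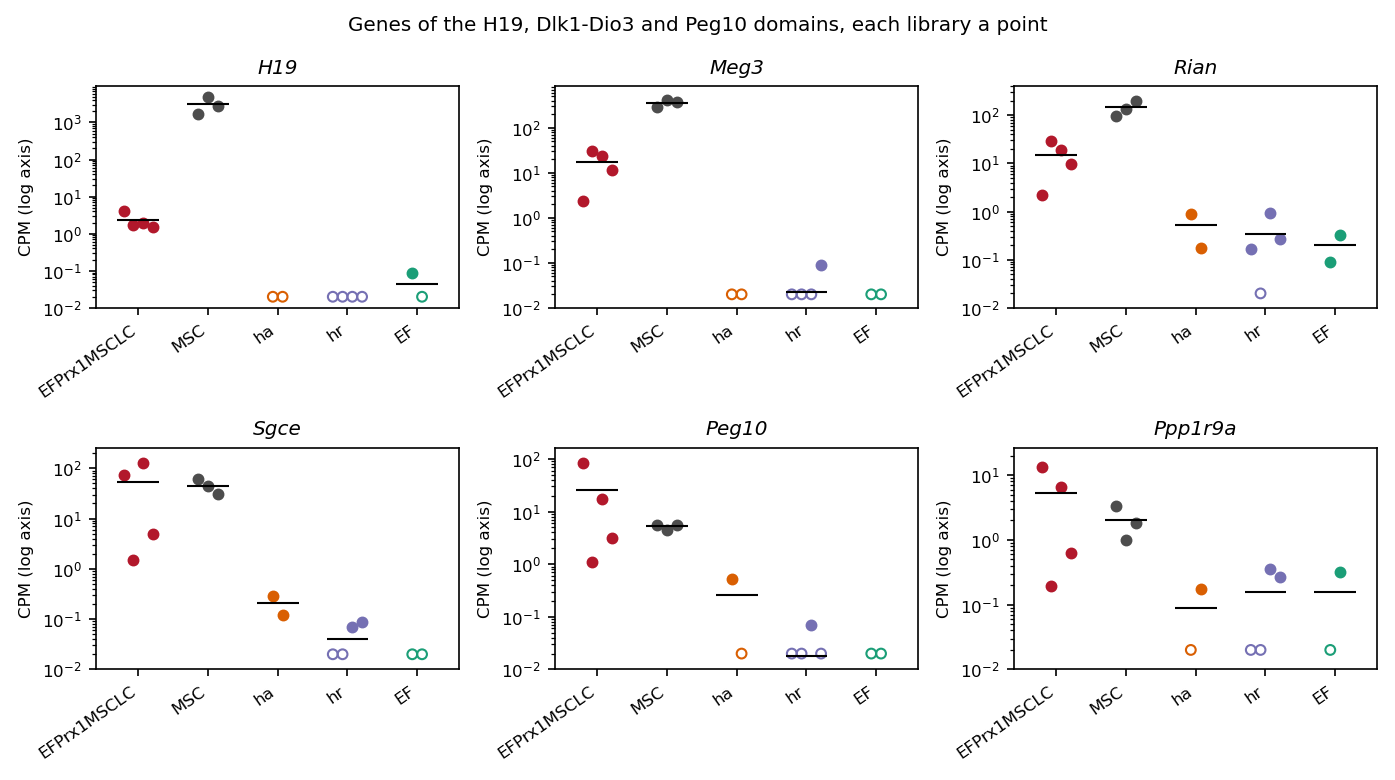
TMM-normalised CPM on a log axis for 6 genes of the H19, Dlk1-Dio3 and Peg10 domains, with each library a point, the black line the group mean and open circles at 0.02 for libraries with 0 counts. H19, Meg3 and Rian are lower in EFPrx1MSCLC than in MSC. Meg3, Rian, Sgce, Peg10 and Ppp1r9a each spread over more than 10-fold within EFPrx1MSCLC.

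Peg3 (ENSMUSG00000002265, chr7:6703892-6730431, minus strand), a paternally expressed zinc finger protein gene, was higher in EFPrx1MSCLC. It was at 14.5, 21, 82.7 and 30.2 CPM in EFPrx1MSCLC and 2.38, 3.86 and 3.83 CPM in MSC. The lowest EFPrx1MSCLC library stood above every MSC library, and the change was 3.47 ± 0.68 (adjusted p = 0.0138), or 2.62 without library 225. Without MSC 234 or MSC 237 the call was lost, with adjusted p up to 0.0557 over the alternatives. The paternally expressed Usp29, a deubiquitinase family gene whose RefSeq start is 164 bases from that of Peg3 on the opposite strand, had 2, 4, 5 and 18 counts in EFPrx1MSCLC and 0, 1 and 1 in MSC, too few for a test. Zim1, a maternally expressed zinc finger gene of the same domain, had 1, 2, 2 and 2 counts in EFPrx1MSCLC and 6, 4 and 8 in MSC.

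The promoter window shared by Peg3 and Usp29 is shown since Peg3 moved in both experiments (chr7:6730370-6730669, minus strand, GRCm38.p6; CpG in capitals, 13 in all).
Peg3: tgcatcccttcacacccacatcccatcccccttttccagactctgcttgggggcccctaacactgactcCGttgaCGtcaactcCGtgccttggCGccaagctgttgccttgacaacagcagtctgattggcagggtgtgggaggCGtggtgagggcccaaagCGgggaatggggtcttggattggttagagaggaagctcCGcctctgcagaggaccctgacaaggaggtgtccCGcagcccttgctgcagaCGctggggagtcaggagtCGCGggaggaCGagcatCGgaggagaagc

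Mest, the paternally expressed gene of an alpha/beta hydrolase fold protein, differed far more between EFPrx1MSCLC libraries than between the groups. It was at 86.2, 8.92, 963 and 11.6 CPM in EFPrx1MSCLC and 15, 9.99 and 17.8 CPM in MSC. Library 225 was the highest, and libraries 221 and 229 lay within or below the MSC range. The change of 4.23 ± 1.73 did not pass (adjusted p = 0.122), and it was 1.26 without library 225 and 1.94 with limma-voom. Its neighbour Copg2, which encodes a coat subunit of vesicles that return to the endoplasmic reticulum, was at 91, 62.4, 73.4 and 66 CPM in EFPrx1MSCLC and 35.9, 32.5 and 30.4 CPM in MSC. The groups did not overlap and Copg2 was higher by 1.15 ± 0.22 (adjusted p = 0.0112). Mest and Copg2 run towards each other and share 912 exon bases on opposite strands, 17.8% of those of Copg2, so reads from there may not have been separated. Mest also hosts miR-335, whose 5p sequence is given with its seed in capitals, and a Mest promoter window with its 17 CpG in capitals (chr6:30737800-30738099, plus strand, GRCm38.p6). Of the other Mest windows, 1 starts 3 bases on and also holds 17 CpG, and 1 (chr6:30733256-30733555) holds 8.
miR-335-5p in Mest: uCAAGAGCaauaacgaaaaaugu
Mest: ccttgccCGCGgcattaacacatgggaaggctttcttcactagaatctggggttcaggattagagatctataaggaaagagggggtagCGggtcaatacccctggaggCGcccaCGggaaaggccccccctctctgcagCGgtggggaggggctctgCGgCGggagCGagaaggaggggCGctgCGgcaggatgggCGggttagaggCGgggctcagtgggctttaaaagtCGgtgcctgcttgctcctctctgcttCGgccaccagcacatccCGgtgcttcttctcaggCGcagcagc

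In the Snrpn domain, members moved in different directions. Snrpn, which encodes the splicing protein SmN, was at 15.1, 30.5, 23.7 and 38.6 CPM in EFPrx1MSCLC and 10.7, 10.6 and 9.53 CPM in MSC, higher by 1.39 ± 0.35 (adjusted p = 0.0314). Ndn, which encodes the growth suppressor necdin, was at 19.4, 28.4, 20.5 and 30.9 CPM in EFPrx1MSCLC and 39.9, 56.9 and 50.7 CPM in MSC, lower, with a log2 change of -0.99 ± 0.26 (adjusted p = 0.0352). Neither gene had overlapping groups. Leaving out any of 4 libraries ended each of these calls: 221, 229, 234 or 237 for Snrpn, and 219, 221, 234 or 237 for Ndn. Snrpn shares 27.3% of its exon bases with a same-strand gene of the annotation and a smaller part with Snurf, so its count is uncertain. Peg12, a Frat family gene, was at 2.72, 7.77, 0.77 and 7.4 CPM in EFPrx1MSCLC and 1.84, 2.88 and 2.82 CPM in MSC, an overlap that did not pass (adjusted p = 0.428).

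In the Peg10 domain of chromosome 6, Sgce, Peg10 and Ppp1r9a divided the EFPrx1MSCLC libraries. Sgce, which encodes epsilon-sarcoglycan, was at 74.6, 1.53, 129 and 4.97 CPM in EFPrx1MSCLC and 59.8, 43.3 and 31.2 CPM in MSC. Peg10, a gene derived from a retrotransposon, was at 82.4, 1.1, 17.3 and 3.09 CPM in EFPrx1MSCLC and 5.62, 4.54 and 5.49 CPM in MSC. Ppp1r9a, which encodes the actin-binding protein neurabin, was at 13.4, 0.192, 6.67 and 0.626 CPM in EFPrx1MSCLC and 3.37, 0.984 and 1.8 CPM in MSC. In all 3 genes, libraries 219 and 225 lay above every MSC library and libraries 221 and 229 lay below every MSC library. None of the 3 passed, with changes of 0.23 ± 1.23 for Sgce, 2.31 ± 1.32 for Peg10 and 1.33 ± 1.29 for Ppp1r9a (adjusted p = 0.911, 0.243 and 0.481). Without library 219 the change was 0.39 for Peg10 and 0.21 for Ppp1r9a. The libraries 219 and 225 were not alike in proportion: Sgce had 0.905 counts per count of Peg10 in 219 and 7.44 in 225. Asb4, of the same domain, did not divide the libraries in this way. It was at 0.256, 0.528, 0.192 and 0.139 CPM in EFPrx1MSCLC, highest in 221, from too few counts for a test.

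Slc22a3 (ENSMUSG00000023828, chr17:12418960-12507704), which encodes an organic cation transporter, was at 1.79, 14, 0.192 and 10.3 CPM in EFPrx1MSCLC and 0.09, 0 and 0 CPM in MSC. Libraries 221 and 229 were the high ones, the reverse of the pattern of Sgce. The groups did not overlap, with 626 counts in EFPrx1MSCLC and 2 in MSC, a ratio between 50.2 and 1507 by counting error alone (exact binomial, 95%). The fitted change was 7.22 ± 1.81 (adjusted p = 0.0312), and limma-voom or the omission of any MSC library ended the call; without MSC 202 the fitted change was 9.94. Airn, the paternal antisense RNA that silences Igf2r and, in placenta, Slc22a3, was at 8.3, 11.2, 4.68 and 8.2 CPM in EFPrx1MSCLC and 5.49, 4.31 and 4.11 CPM in MSC, which did not pass (adjusted p = 0.187).

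Blcap, a small membrane protein gene with maternal expression in brain, was lower. It was at 31.7, 35.1, 26.7 and 37.7 CPM in EFPrx1MSCLC and 64.4, 59.1 and 50.6 CPM in MSC, a change of -0.82 ± 0.21 (adjusted p = 0.0332). The groups did not overlap, but leaving out 221, 229, 234 or 237 ended the call. Zrsr1, a retrogene related to the splicing factor U2af1, was at 20.5, 20.4, 64.2 and 25.3 CPM in EFPrx1MSCLC and 12.9, 10.4 and 13.8 CPM in MSC. The groups did not overlap, yet the change of 1.40 ± 0.47 missed the threshold (adjusted p = 0.0737) and was 0.76 without library 225. H13, which encodes signal peptide peptidase, was at 101, 176, 146 and 166 CPM in EFPrx1MSCLC and 242, 224 and 269 CPM in MSC, and its change of -0.73 ± 0.26 also missed it (adjusted p = 0.0849). Gnas, which encodes the stimulatory G protein alpha subunit, averaged 870 ± 119 CPM in EFPrx1MSCLC and 855 ± 133 CPM in MSC, a change of 0.02 ± 0.27. The remaining 3 genes tested, Plagl1, Impact and Mcts2, did not pass, with changes of -0.60 ± 0.44, 0.33 ± 0.48 and 0.44 ± 0.30.

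**Figure D3:**
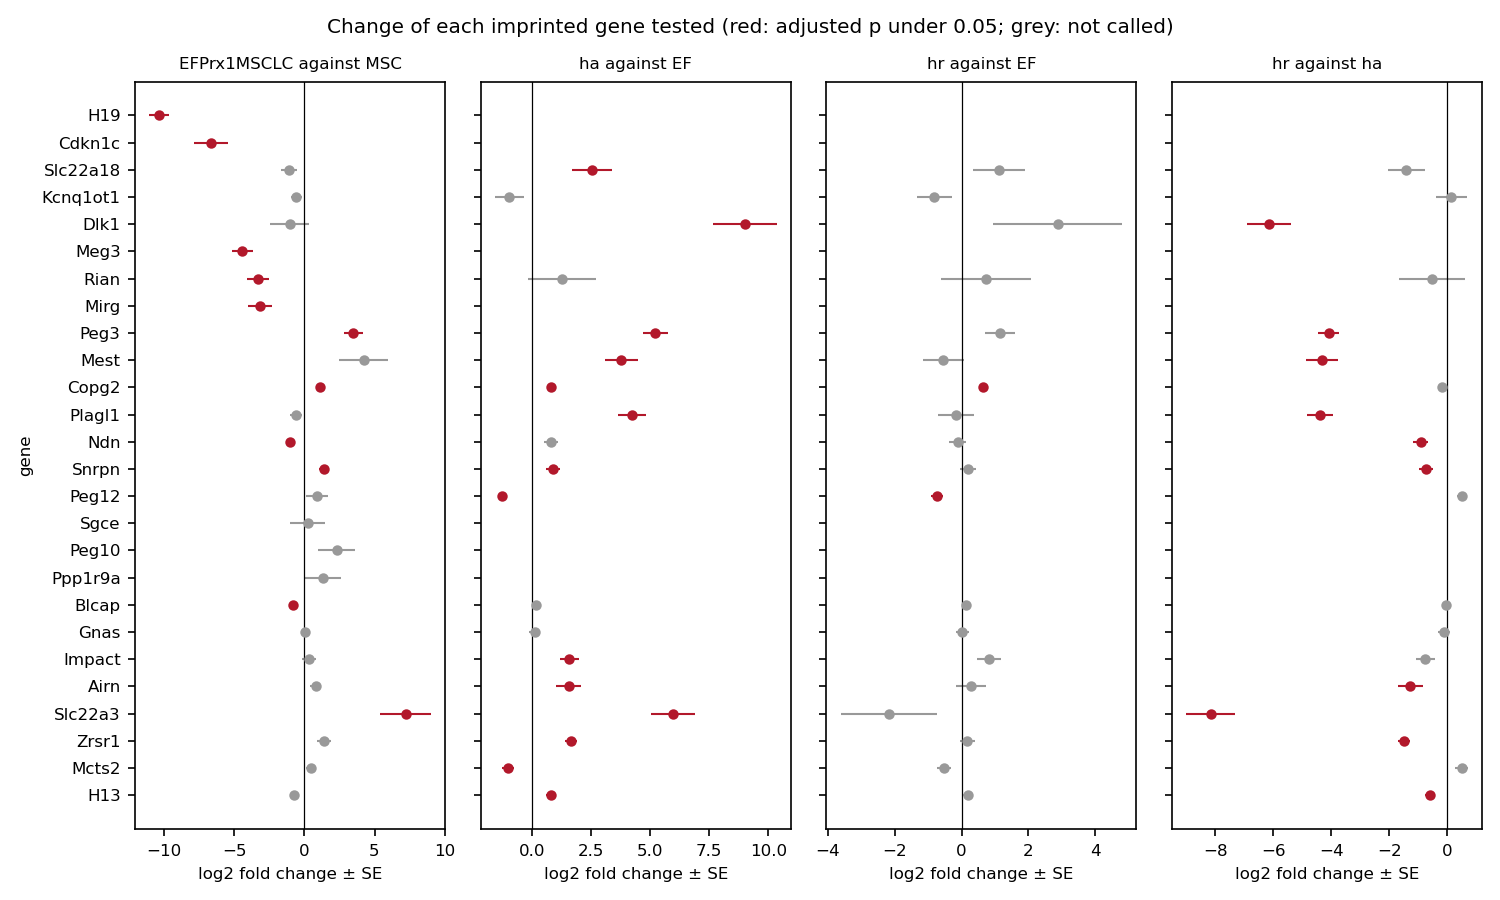
Log2 fold change with its standard error for each imprinted gene tested, 1 panel per comparison with its own axis, in red where adjusted p was under 0.05. H19 lies at -10.34 in the first panel, most red points of ha against EF lie right of 0, and all red points of hr against ha lie left of 0; fitted values of genes with nearly no counts in a group, such as Dlk1 and Slc22a3, depend on the model.

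Experiment 2 was run on another flowcell than experiment 1, so levels are set side by side without a test. EFPrx1MSCLC library 221 held Meg3 at 30.3 and Rian at 28.4 CPM. The 8 libraries of experiment 2, whose titles carry the same number, held Meg3 at 0 to 0.0888 CPM and Rian at 0 to 0.928 CPM. Meg3 had 1 count in these 8 libraries, in hr uns-2-2. Sgce stood at 1.53 CPM in library 221 and at 0 to 0.293 CPM in experiment 2. Slc22a3, at 14 CPM in library 221, was at 6.15 and 11 CPM in ha, at 0 to 0.0888 CPM in hr and at 0.266 and 0 CPM in EF. The sources used here do not give whether the EF cells of experiment 2 derive from those of library 221.

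In ha against EF, the paternally expressed growth-related genes Dlk1, Peg3, Plagl1 and Mest and the transporter Slc22a3 were higher by large amounts, and Peg12 and Mcts2 were lower. Of the 19 genes tested, 12 were higher and 2 lower. Over all 13998 genes tested, 23.0% were called higher and 19.6% lower. The median log2 change was 1.27 over the 19 and 0.05 over all genes. The 12 were Slc22a18, Dlk1, Peg3, Mest, Copg2, Plagl1, Snrpn, Impact, Airn, Slc22a3, Zrsr1 and H13. In none of the 14 called genes did ha and EF overlap, nor in Kcnq1ot1, Ndn, Blcap and Gnas, which were not called. The share of genes without overlap over all genes was not computed. With the EF pair summed to 1 library and each hr line to 1, only Peg3 and Slc22a3 of the 14 remained called, in a fit that called 736 genes in all against 5961. Without EF 1 there were 8 called imprinted genes and without EF 2 there were 9, with 3070 and 3106 calls over all genes.

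In hr against EF, 1 of the 19 genes was higher and 1 lower, against 3.88% higher and 3.07% lower over all genes. Copg2 was higher by 0.64 ± 0.12 (adjusted p = 0.0284) and Peg12 lower, with a log2 change of -0.73 ± 0.17 (adjusted p = 0.0445). Both calls were lost without any 1 of the hr or EF libraries and with the repeat libraries summed. The median change was 0.17 over the 19 genes and 0.01 over all genes. In hr against ha, 0 of the 19 were higher and 10 lower, against 17.9% higher and 21.5% lower over all genes. The 10 were Dlk1, Peg3, Mest, Plagl1, Ndn, Snrpn, Airn, Slc22a3, Zrsr1 and H13, with a median over the 19 of -0.76 and over all genes of -0.00. Dlk1, Peg3, Mest, Plagl1, Slc22a3 and Zrsr1 stayed called in every alternative that could test them, and they were the 6 that passed without T2. Comparisons with ha share the ha libraries, so a gene high in ha enters both, and their calls are not independent.

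Peg3 stood at 139 and 182 CPM in ha, at 6.24, 4.94, 13.3 and 13 CPM in hr, and at 4.52 and 3.99 CPM in EF. Both ha libraries were more than 10 times above each hr and EF library, and the hr lines did not overlap each other. The change was 5.23 ± 0.52 in ha against EF (adjusted p = 0.00045), 1.14 ± 0.45 in hr against EF (adjusted p = 0.158), and -4.09 ± 0.37 in hr against ha (adjusted p = 0.000263). Usp29, across the shared promoter shown above, had 10 and 24 counts in ha, 2, 0, 2 and 3 in hr, and 2 and 0 in EF, too few for a test.

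Plagl1 encodes a zinc finger factor that restrains cell growth and acts on other imprinted genes. It stood at 84.1 and 42.7 CPM in ha, at 1.69, 1.45, 4.57 and 4.26 CPM in hr, and at 3.55 and 3.19 CPM in EF. Library T1 was above T2, and both were far above the rest. The change was 4.23 ± 0.59 in ha against EF (adjusted p = 0.00155), -0.16 ± 0.53 in hr against EF (adjusted p = 0.884) and -4.39 ± 0.45 in hr against ha (adjusted p = 0.00045).

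Mest stood at 114 and 44.8 CPM in ha, at 5.31, 6.47, 2.64 and 1.33 CPM in hr, and at 5.06 and 6.39 CPM in EF. Library T1 was the higher ha library here too, and hr line uns-2 was below both EF libraries. The change was 3.79 ± 0.69 in ha against EF (adjusted p = 0.00433), -0.54 ± 0.60 in hr against EF (adjusted p = 0.613) and -4.33 ± 0.55 in hr against ha (adjusted p = 0.001). Without T1 it was 2.96 in ha against EF and -3.50 in hr against ha. Copg2 stood at 98.8 and 79.3 CPM in ha, at 83.5, 81, 72.7 and 74.1 CPM in hr, and at 51.9 and 48.2 CPM in EF. EF was thus below all 6 ha and hr libraries in Copg2. The part of the exon bases shared with Mest in these levels was not tested. The change of Copg2 was 0.83 ± 0.14 in ha against EF (adjusted p = 0.00288) and -0.19 ± 0.12 in hr against ha, which did not pass (adjusted p = 0.217).

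Dlk1 stood at 3.58 and 6.42 CPM in ha, at 0.0843, 0.17, 0 and 0 CPM in hr, and at 0 CPM in both EF libraries. There were 158 counts in ha, 3 in hr and 0 in EF, so ha was at least 40.9-fold higher than EF, with 3 counts over the EF group as the floor. The test gave adjusted p = 0.00281 for ha against EF and 0.00145 for hr against ha, where the ratio lay between 0.00243 and 0.0354 by counting error alone. The maternal RNAs of this domain did not show such levels in ha. Meg3 had 0 counts in both ha libraries, Mirg was at 0.0732 and 0.118 CPM, and Rian was at 0.878 and 0.177 CPM in ha and 0.0887 and 0.319 CPM in EF, which overlap (adjusted p = 0.511). Rtl1 had 3 and 1 counts in ha, 0 in hr, and 0 and 1 in EF.

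Slc22a3 had 270 counts in ha, 1 in hr and 3 in EF. The ratio of ha to EF lay between 23.7 and 341, and that of hr to ha between 5.86e-05 and 0.013, by counting error alone. The fitted change was 5.97 ± 0.93 in ha against EF (adjusted p = 0.00243) and -8.15 ± 0.85 in hr against ha (adjusted p = 0.000468). The fitted change in ha against EF was 9.81 without EF 1 and 4.95 without EF 2, and in hr against ha -9.82 without hr uns-2-2. Airn, of the same cluster, stood at 3.95 and 9.43 CPM in ha, at 3.88, 3.32, 1.78 and 2.13 CPM in hr, and at 2.4 and 2.16 CPM in EF. The lower ha library was only just above the highest hr library. The change of Airn was 1.56 ± 0.52 in ha against EF (adjusted p = 0.0434) and -1.27 ± 0.42 in hr against ha (adjusted p = 0.0454), and leaving out T2, among other libraries, ended both calls, with changes of 0.79 and -0.51.

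**Figure D4:**
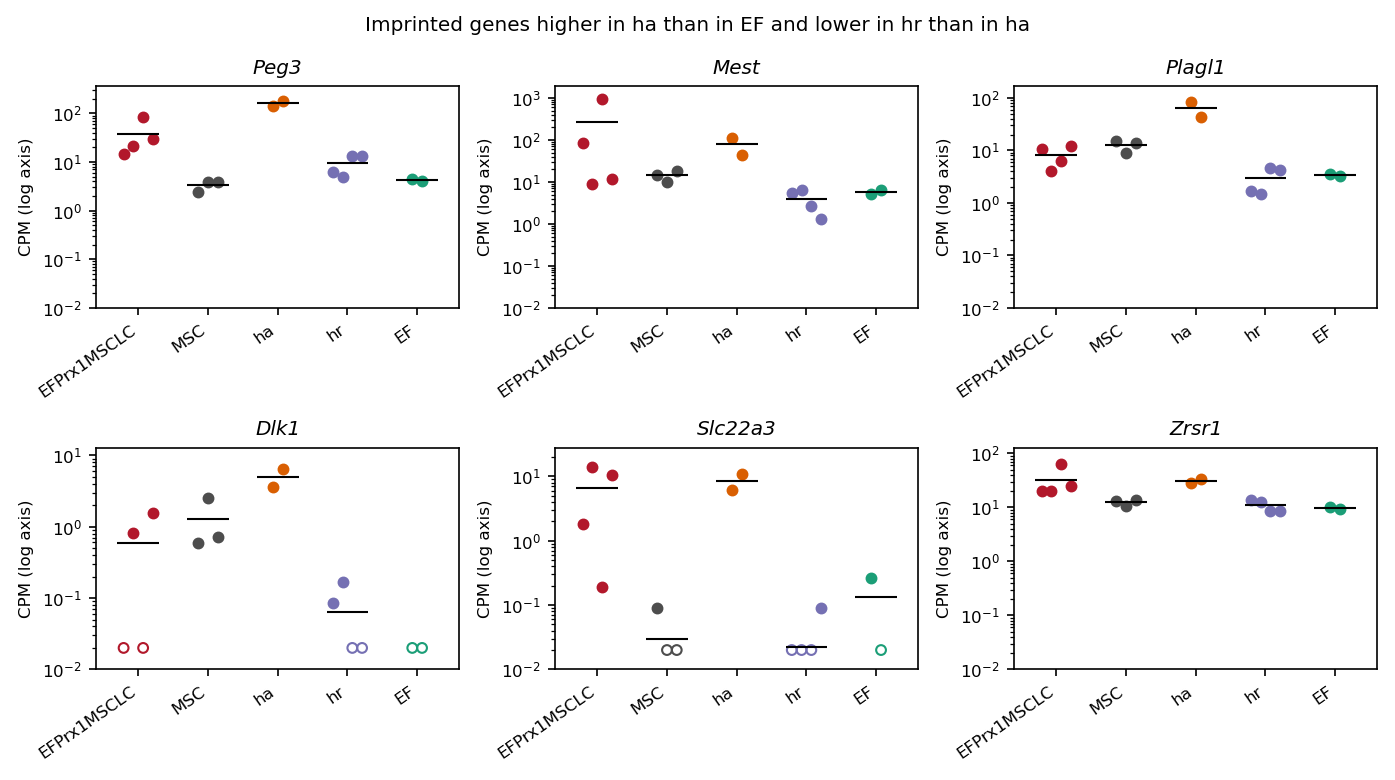
TMM-normalised CPM on a log axis for 6 imprinted genes called higher in ha than in EF and lower in hr than in ha, with each library a point, the black line the group mean and open circles at 0.02 for libraries with 0 counts. Peg3 lies at 139 and 182 CPM in ha, and hr and EF lie at or below 13.3 CPM.

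Zrsr1 stood at 28.2 and 33.1 CPM in ha, at 13.7, 12.7, 8.42 and 8.71 CPM in hr, and at 10.2 and 9.18 CPM in EF, a change of 1.66 ± 0.27 in ha against EF (adjusted p = 0.00268) and -1.49 ± 0.22 in hr against ha (adjusted p = 0.00181). The gene lies in an intron of Commd1 and shares 9.2% of its exon bases with it on the opposite strand. Impact, which encodes an inhibitor of the amino acid sensor Gcn2, stood at 177 and 143 CPM in ha, at 64.3, 58.8, 127 and 128 CPM in hr, and at 55.6 and 51.7 CPM in EF. It was higher by 1.58 ± 0.40 in ha against EF (adjusted p = 0.0167), a call lost in 5 of 16 alternatives. The hr libraries lay between, with line uns-2 near ha. The change in hr against EF was 0.82 ± 0.36 (adjusted p = 0.197) and in hr against ha -0.76 ± 0.33 (adjusted p = 0.106).

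Within the Snrpn domain, Snrpn stood at 9.8 and 17 CPM in ha, at 9.61, 7.07, 8.56 and 7.29 CPM in hr, and at 7.27 and 7.03 CPM in EF. It was higher by 0.91 ± 0.29 in ha against EF (adjusted p = 0.0363) and lower, with a log2 change of -0.72 ± 0.24 in hr against ha (adjusted p = 0.046), and both calls were lost without T2 and without some other libraries. Ndn stood at 23.3 and 31.2 CPM in ha, at 10.5, 11.4, 17.2 and 18.4 CPM in hr, and at 16 and 15.2 CPM in EF. It passed in hr against ha (-0.92 ± 0.25, adjusted p = 0.0212) and missed in ha against EF (0.81 ± 0.29, adjusted p = 0.0592). Peg12 went the other way, at 6.73 and 6.72 CPM in ha, 7.67, 9.19, 10.5 and 10.8 CPM in hr, and 16.1 and 15.6 CPM in EF. It was lower, with a log2 change of -1.24 ± 0.20 in ha against EF (adjusted p = 0.0027), and EF was above all 6 other libraries.

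The gene pair of H13 and Mcts2, a retrogene in an intron of H13, also went in opposite directions. H13 stood at 124 and 144 CPM in ha, at 101, 102, 75.7 and 74.1 CPM in hr, and at 77.6 and 76.4 CPM in EF, with a change of 0.80 ± 0.19 in ha against EF (adjusted p = 0.0118) and -0.61 ± 0.16 in hr against ha (adjusted p = 0.0196). Mcts2 stood at 8.85 and 5.19 CPM in ha, at 9.36, 10.9, 9.2 and 9.86 CPM in hr, and at 14 and 14.4 CPM in EF, lower, with a log2 change of -1.02 ± 0.25 in ha against EF (adjusted p = 0.0146). In ha against EF, the calls of H13 and of Mcts2 were each lost in 4 of 16 alternatives. Reads of Mcts2 may be shared with its parent gene, so its level is uncertain. Slc22a18 stood at 1.46 and 3.36 CPM in ha, at 0.59, 0.596, 1.43 and 0.977 CPM in hr, and at 0.0887 and 0.719 CPM in EF. It was higher by 2.53 ± 0.85 in ha against EF (adjusted p = 0.0452), with 77 counts in ha and 10 in EF, and the call was lost in 8 of 15 alternatives. The change was 1.81 without T2, 1.73 without EF 1 and 4.62 without EF 2.

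Kcnq1ot1, Gnas, Blcap and Rian were called in no comparison of experiment 2. Kcnq1ot1 stood at 9.36 and 23.5 CPM in ha, at 10.9, 8.77, 26.5 and 26.5 CPM in hr, and at 30.5 and 33.3 CPM in EF. The ha libraries differed from each other, as did the hr lines, and EF was above all of them. Gnas stood at 970 and 852 CPM in ha, at 1005, 1006, 688 and 688 CPM in hr, and at 845 and 828 CPM in EF, with the hr lines on either side of EF. Blcap spanned 29.1 to 35.5 CPM over all 8 libraries. Nespas, the antisense RNA of the Gnas domain, had 2 and 5 counts in ha and 2, 4, 3 and 0 in hr, against 9 and 13 in EF, and 31.4% of its exon bases overlap Gnas.

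The hr lines stood apart from each other in several of these genes, while libraries of a line differed by little. Peg3, Plagl1, Impact, Ndn, Kcnq1ot1, Peg12 and Slc22a18 were higher in both uns-2 libraries than in both uns-1 libraries, and Mest, Copg2, Gnas, Airn, Zrsr1 and H13 were higher in both uns-1 libraries. At low counts, 18 and 3 over all hr libraries, Rian was also higher in both uns-2 libraries and Dlk1 in both uns-1 libraries. Across genes, libraries of different hr lines differed by 16.3 to 17.8 times the variance of counting. The share of all genes that separate the lines in this way was not computed, and the difference between lines was not tested. Set against EF, the libraries of uns-1 alone gave 3 called imprinted genes and those of uns-2 alone gave 4, against 2 for both lines together. Calls over all genes were 2221 with uns-1 alone and 2074 with uns-2 alone, against 973 with both. Summed mesenchymal markers were 21189 to 23795 CPM in ha, 11740 to 13729 CPM in hr and 13120 to 13363 CPM in EF, with all 12 markers counted in each group. Summed hematopoietic markers were 12.7 to 28.8 CPM in ha, 7.75 to 9.36 CPM in hr and 9.31 to 9.42 CPM in EF. Of these 12 markers, 6 had counts in ha, 9 in hr and 7 in EF, and the defining marker Ptprc had 0 counts in ha. The 6 osteoclast markers summed to 50.8 to 81.6 CPM in ha (3 with counts), 6.49 to 26.4 CPM in hr (6 with counts) and 13.8 to 14.3 CPM in EF (3 with counts). The 6 epithelial markers summed to 0.589 to 1.02 CPM in ha, 32.2 to 38.5 CPM in hr and 13 to 14.5 CPM in EF, with Epcam at 0 counts in all 3 groups. The 6 neural markers summed to 16 to 16.3 CPM in ha, 8.43 to 11.8 CPM in hr and 3.51 to 3.73 CPM in EF, with Snap25 at 0 counts in all 3 groups. These marker levels moved with the groups, and their part in the levels of imprinted genes was not tested.

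A list of 30 genes that set, read or keep imprints was compared in the same fits. In EFPrx1MSCLC against MSC, 4 of 27 tested were higher and 1 lower, against 7.70% higher and 12.1% lower over all genes. Cbx5, which encodes the heterochromatin protein HP1 alpha, averaged 254 CPM in EFPrx1MSCLC and 49.4 CPM in MSC (2.36 ± 0.30, adjusted p = 0.00328). The others that rose were Smchd1, a chromatin protein needed for silencing at several imprinted clusters (1.44 ± 0.31, adjusted p = 0.0179), the Polycomb subunit gene Suz12 (0.97 ± 0.23, adjusted p = 0.025) and the histone demethylase gene Kdm1b (1.00 ± 0.28, adjusted p = 0.0439). Dnmt3l, the cofactor of de novo DNA methyltransferases in germ cells, had 2 counts in EFPrx1MSCLC and 270 in MSC (adjusted p = 0.00261). The maintenance methyltransferase gene Dnmt1 averaged 126 CPM in EFPrx1MSCLC and 59.8 CPM in MSC and overlapped (adjusted p = 0.115), and its recruiter Uhrf1 likewise did not pass (66.5 CPM in EFPrx1MSCLC and 21.6 CPM in MSC, adjusted p = 0.271). In both genes 1 EFPrx1MSCLC library lay below every MSC library: for Uhrf1 the lowest was 2.57 CPM and the median 85.7 CPM in EFPrx1MSCLC, against 9.99 to 31.7 CPM in MSC, and for Dnmt1 the lowest was 44.8 CPM and the median 150 CPM, against 56.5 to 62.1 CPM in MSC. The imprint-keeping zinc finger gene Zfp57, its partner Trim28 and the insulator protein gene Ctcf did not pass either, with changes of 0.99 ± 0.46, -0.02 ± 0.28 and 0.57 ± 0.23.

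In ha against EF, 9 of the 26 imprint control genes tested were lower and 3 higher, against 19.6% lower and 23.0% higher over all genes. Dnmt1 averaged 151 CPM in ha and 355 CPM in EF (-1.24 ± 0.25, adjusted p = 0.00668), and Uhrf1 75.7 CPM in ha and 228 CPM in EF (-1.59 ± 0.29, adjusted p = 0.00404). The Polycomb subunit genes Suz12 and Eed were lower, with log2 changes of -1.14 ± 0.10 and -0.83 ± 0.10 (adjusted p = 0.000312 and 0.000866), and Cbx5 by a change of -0.64 ± 0.11 (adjusted p = 0.0035). Tet2, an oxidase of methylated cytosine, averaged 28.9 CPM in ha and 4.9 CPM in EF (2.56 ± 0.29, adjusted p = 0.000645). Zfp445, an imprint-keeping zinc finger gene, and Arid4a were higher by 0.53 ± 0.16 and 0.59 ± 0.20 (adjusted p = 0.0313 and 0.0494). Zfp57, Trim28 and Ctcf did not pass, with adjusted p of 0.0637, 0.0691 and 0.223.

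In hr against EF, 1 of the 26 was higher and 3 lower, against 3.88% and 3.07% over all genes. Tet2 averaged 15.2 CPM in hr and 4.9 CPM in EF (1.63 ± 0.26, adjusted p = 0.0167), and Dnmt1 182 CPM in hr and 355 CPM in EF (-0.96 ± 0.21, adjusted p = 0.0406). Cbx5 and the methyltransferase gene Ehmt1 were lower, with log2 changes of -0.43 ± 0.09 and -0.37 ± 0.09 (adjusted p = 0.0414 and 0.0476). All these calls were lost without EF 1 or without EF 2, and with the repeat libraries summed. Over all genes, 332 to 379 were called in hr against EF with 1 hr library left out, against 973 with every library. Uhrf1, Ctcf, Trim28 and Zfp57 did not pass (adjusted p = 0.0952, 0.118, 0.482 and 0.938). In hr against ha, 6 were higher and 5 lower, against 17.9% and 21.5% over all genes. Suz12, Eed, Smchd1 and Uhrf1 were higher by 1.05 ± 0.09, 0.57 ± 0.09, 0.62 ± 0.16 and 0.84 ± 0.25 (adjusted p = 0.000215, 0.00248, 0.0176 and 0.0323). Zfp57 was higher by 0.63 ± 0.20 (adjusted p = 0.0381). The de novo methyltransferase gene Dnmt3a, Zfp445, Tet2 and Tet3 were lower, with log2 changes of -0.68 ± 0.13, -0.63 ± 0.14, -0.93 ± 0.22 and -0.68 ± 0.17 (adjusted p = 0.00498, 0.00916, 0.0137 and 0.0157). Dnmt1, Trim28 and Ctcf did not pass (adjusted p = 0.349, 0.192 and 0.463).

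Other genes of the same chromosomal domains were taken from a list of 59. In EFPrx1MSCLC against MSC, 3 of 43 tested were higher and 10 lower, against 7.70% and 12.1% over all genes, with a median change of -0.52 against 0.04 over all genes. At the far end of the Dlk1-Dio3 domain, the paternally expressed thyroid hormone deiodinase gene Dio3 had 21 counts in EFPrx1MSCLC and 668 in MSC (-5.52 ± 1.18, adjusted p = 0.0183). Begain of the same domain was lower, with a log2 change of -2.77 ± 0.57 (adjusted p = 0.0155). Both were chosen after their values were seen, for their place in the domain of Meg3. Of the other genes listed beside them, Wars was lower (-1.46 ± 0.31, adjusted p = 0.0177). Wdr25 and Slc25a29 did not pass, with changes of -0.13 ± 0.47 and -0.45 ± 0.56 (adjusted p = 0.863 and 0.589). By lowest adjusted p, the lower genes were Pon3, Lsp1, Tfpi2 and Cox4i2. Lsp1, a leukocyte-specific protein gene near H19, averaged 4.39 CPM in EFPrx1MSCLC and 161 CPM in MSC (-5.20 ± 0.54, adjusted p = 0.00185), and Pon3, a paraoxonase gene near Peg10, 6.59 CPM in EFPrx1MSCLC and 47.3 CPM in MSC (-2.84 ± 0.27, adjusted p = 0.00144). Tfpi2, a serine protease inhibitor gene of the Peg10 domain, had 1 count in EFPrx1MSCLC and 259 in MSC (adjusted p = 0.00204). Cox4i2 had 2 counts in EFPrx1MSCLC and 371 in MSC (adjusted p = 0.00277). Cep41, Id1 and Nelfcd were higher by 1.38 ± 0.31, 2.61 ± 0.68 and 0.75 ± 0.22 (adjusted p = 0.0201, 0.0347 and 0.0481).

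In ha against EF, 10 of 40 genes of the same domains were higher and 10 lower, near the 23.0% and 19.6% of all genes, with a median change of -0.07 against 0.05 over all genes. Atp10a, a phospholipid flippase gene of the Snrpn domain, averaged 12.7 CPM in ha and 92.4 CPM in EF (-2.86 ± 0.21, adjusted p = 0.000182). Cars, Sf3b5 and Bcl2l1 were lower, with log2 changes of -1.62 ± 0.23, -0.72 ± 0.12 and -1.54 ± 0.28, and Tmed3, Morf4l1, Lsp1 and Clcn4 were higher by 1.83 ± 0.20, 0.71 ± 0.11, 2.95 ± 0.48 and 0.62 ± 0.11. In hr against EF, 0 were higher and 3 lower, against 3.88% and 3.07% over all genes. The 3 were Id1, Atp10a and Sf3b5, with log2 changes of -1.29 ± 0.22, -0.82 ± 0.17 and -0.49 ± 0.10. These calls too were lost without EF 1 or without EF 2, and with the repeat libraries summed. In hr against ha, 9 were higher and 11 lower, against 17.9% and 21.5% over all genes. Atp10a averaged 52.4 CPM in hr and 12.7 CPM in ha (2.04 ± 0.19, adjusted p = 0.000315), and Tmed3 50.4 CPM in hr and 144 CPM in ha (-1.52 ± 0.16, adjusted p = 0.000535). The next by adjusted p were Cars, Bcl2l1 and Ltv1, higher by 1.37 ± 0.21, 1.26 ± 0.25 and 0.65 ± 0.15, and Id1, Adam23 and Morf4l1, lower, with log2 changes of -1.58 ± 0.22, -2.79 ± 0.42 and -0.59 ± 0.09.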

How the data were processed

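The values that the authors deposited for the 15 libraries are expected counts for each gene, an estimate of its reads that can be fractional. Per the submitters' processing notes, STAR, RSEM and the build GRCm38.p6 were used, without versions. The sources used here do not give the annotation release or the strand setting of the counting. RSEM shares reads out among near-identical copies, so overlapping and copied genes are uncertain. Fractional values made up 8.27%, and all values were rounded. Gene symbols and positions came from a GENCODE annotation of GRCm38, by Ensembl identifier.

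Each experiment was fitted over its whole table, 7 and 8 libraries, with edgeR 4.0.16 in R 4.3.3 (filterByExpr with a minimum count of 10, TMM, glmQLFit with robust estimation, glmQLFTest, two-sided), and p-values were adjusted by Benjamini-Hochberg over all genes tested (threshold 0.05). Standard errors are from the quasi-likelihood F statistic. DESeq2 1.42.0, limma-voom (limma 3.58.1), other filters, the omission of each library and sums of near-identical libraries were alternatives. The fit was tested on simulated data. Every imprinted gene is named; of the imprint control genes and the other genes of the domains, up to 4 called genes per direction and comparison are named by adjusted p, plus Dnmt1, Uhrf1, Trim28, Zfp57 and Ctcf. Dio3, Begain, Wars, Wdr25 and Slc25a29 are named beyond this rule. The genes, lists, tests and alternatives were chosen with earlier results of these data known. Intervals and floors cover counting error only.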

Additional observations from a re-analysis of the deposited data

Results flagged for a closer look

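Within each group of 4 libraries, the gap of the highest or lowest library to its nearest neighbour was set against the range of the group for the imprinted genes with counts, in 45 such groups. In 4 of them the gap was above Dixon's 95% critical value for 4 libraries. That value is made for 4 independent libraries, while the hr libraries are 2 lines of near-identical pairs. The number of flags is therefore not set against a rate expected by chance. H19 in EFPrx1MSCLC library 219 was at 4.2 CPM, with the other 3 at 1.56 to 1.92 CPM. Mest in EFPrx1MSCLC library 225 was at 963 CPM, with the others at 8.92 to 86.2 CPM. Zrsr1 in the same library 225 was at 64.2 CPM, with the others at 20.4 to 25.3 CPM. Slc22a3 in hr uns-2-2 was at 0.0888 CPM, which is 1 count, with 0 in the other 3 hr libraries, a pattern that always passes this rule.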

How the results depend on the processing

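The count of imprinted genes called was 11 in EFPrx1MSCLC against MSC and 3 to 11 when 1 library was left out. In ha against EF it was 14, and 8 to 14 when 1 library was left out. In hr against EF it was 2, and 0 to 3 when 1 library was left out; without filter it was 1, and with hr uns-2 alone 4. In hr against ha it was 10, and 6 to 11 when 1 library was left out. With the near-identical EF and hr libraries summed, the counts were 2 in ha against EF, 0 in hr against EF and 6 in hr against ha, in a fit with fewer samples. The title numbers are not stated to pair the libraries. Differences between the 2 libraries of ha, of EF and of each hr line correlated between -0.02 and 0.02. Since the EF and hr pairs differ by little more than counting noise, these correlations cannot exclude a pairing. With the replicate block in the fit, 11 genes were called in ha against EF, 0 in hr against EF and 8 in hr against ha. Of the called genes, 3 of 11, 2 of 14, 0 of 2 and 6 of 10 were called in every alternative that could test them.

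No called change reversed in the alternatives run. Changes that were not called reversed for Ppp1r9a in EFPrx1MSCLC against MSC with limma-voom (-0.19), for Rian in ha against EF without ha T1 (-0.23, with -0.23 to 2.41 over the omissions), and for Slc22a3 in hr against EF without EF 1 (1.66, with -3.85 to 1.66). The cause of these shifts was not tested. Low counts limit Slc22a3, Dlk1, Rian and Slc22a18 in experiment 2, and the 10 genes under the filter gave no test.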
